A study of Mus musculus with 8 samples.

Results

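Sprouty, Spred and dual-specificity phosphatase (DUSP) genes encode brakes on MAP kinase signalling, and 10 of them were followed here in peritoneal B-1a cells that lack PTIP. They were Spry1, Spry2, Spry4, Spred1, Spred2, Dusp2, Dusp4, Dusp5, Dusp6 and Dusp10, out of 22180 genes measured. A member was any probe set whose platform annotation gave one of these symbols, and where a gene had several the probe set with the highest mean over all 8 arrays stood for it. That choice mattered for Dusp6 alone, whose 2 probe sets had means of 7.24 and 5.31 on the log2 scale. The other 9 genes had 1 probe set each, so that 11 probe sets in all carried a member's symbol. The choice of probe set did not use the genotypes, but the 10 genes were chosen by family with their KO minus WT differences on these same arrays already in view. Counts over them are therefore descriptions and support nothing.

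The mutant mice (KO) were CD19cre/+PTIPflox/flox and the control mice (WT in the labels) were CD19cre/+PTIP+/+, all 5 weeks old. Cre is active in B lineage cells, and every animal of both groups carried it. B-1a cells are B cells of the pleural and peritoneal cavities that maintain themselves by division and make natural antibodies, and they were sorted by flow cytometry from peritoneal lavage. From 29 KO and 22 WT mice 4 pooled samples were made per genotype, and each pool was hybridised to 1 array. The sources used here do not give how the animals were split among the pools, their sex or the sort gates.

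In this pathway growth factor, antigen and cytokine receptors load Ras with GTP, and a chain of kinases (RAF, MEK, ERK) carries the signal to the nucleus. ERK activity induces Sprouty and several DUSP genes, whose products then hold the pathway down: Sproutys act at the level of receptors, adaptors and Ras, Spreds bring the Ras GTPase-activating protein neurofibromin to the membrane, and DUSPs take the phosphates off the kinases. For this reason RNA of these genes is widely used as a readout of past ERK activity, although transcription factors outside the pathway also control it. In B cells the pathway runs below the B cell receptor and takes part in development, activation and survival.

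The deleted gene gave a check of the labels. Paxip1, which encodes PTIP, stood at log2 RMA values (background-corrected and set to a shared distribution over the arrays) of 4.66, 4.48, 4.79 and 3.58 in KO pools 1 to 4, against 6.87, 7.13, 7.16 and 7.03 in WT pools 1 to 4. All KO pools lay below all WT pools, with a difference of -2.67 (SE 0.22, limma adjusted p = 9.96e-05). The mean of 6 B cell markers was 10.01 to 10.24 in KO pools and 10.23 to 10.31 in WT pools, and 1 of them, Cd22, fell (-0.59). Of 8 B-1a markers 4 fell, against 2.10% of all genes: Itgam (-1.68), Fcrl5 (-1.39), Zbtb32 (-1.11) and Cd9 (-0.60). The others did not pass the limma test: Cd5 differed by 0.04, Bhlhe41 by -0.02, Spn by -0.52 and Ctla4 by 0.55. The mean of all 8 was 7.00 to 7.14 in KO pools and 7.56 to 7.75 in WT pools. The mean of 14 T cell markers ranged from 5.35 to 7.34 in KO and from 4.76 to 5.71 in WT, highest in KO pools 1 and 2 (7.34 and 7.13). Of those 14 markers 13 had positive differences and 0 passed the limma test. An unadjusted p under 0.05 was found for 10 of them, against 15.3% of all genes. The mean of 12 NK cell markers ran from 4.34 to 5.52 in KO and from 3.64 to 4.44 in WT. It too was highest in KO pools 1 and 2 (5.52 and 5.29). All 12 had positive differences, 2 rose, against 1.49% of all genes, and 8 had an unadjusted p under 0.05. The mean of 6 mast cell markers was 3.36 to 3.82 in KO pools and 3.06 to 3.31 in 3 WT pools, but 4.47 in WT pool 1. The mean of 11 macrophage markers was 4.42 to 4.87 in KO pools and 4.33 to 4.67 in those 3 WT pools, and again highest in WT pool 1, at 5.15. In such pools fewer cells of a type and less RNA per cell cannot be told apart.

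Of the 10 genes 3 rose in KO, Spry2, Dusp6 and Dusp2, and the other 7 did not pass the test (limma, adjusted p under 0.05 over all 22180 genes). None fell. Over all genes 1.49% rose, 2.10% fell and 3.59% were called, that is, passed this threshold, in either direction. In 4 of the 10 genes the genotypes did not overlap, against 10.5% of all genes, and 4 had an unadjusted p under 0.05, against 15.3%. Nothing is read from the members' shares beside these backgrounds. The median difference of the 10 was 0.13 on the log2 scale, against 0.02 over all genes, and 7 of the 10 differences were positive. Values of different genes are not set against each other, since each probe set has its own brightness.

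**Figure D1:**
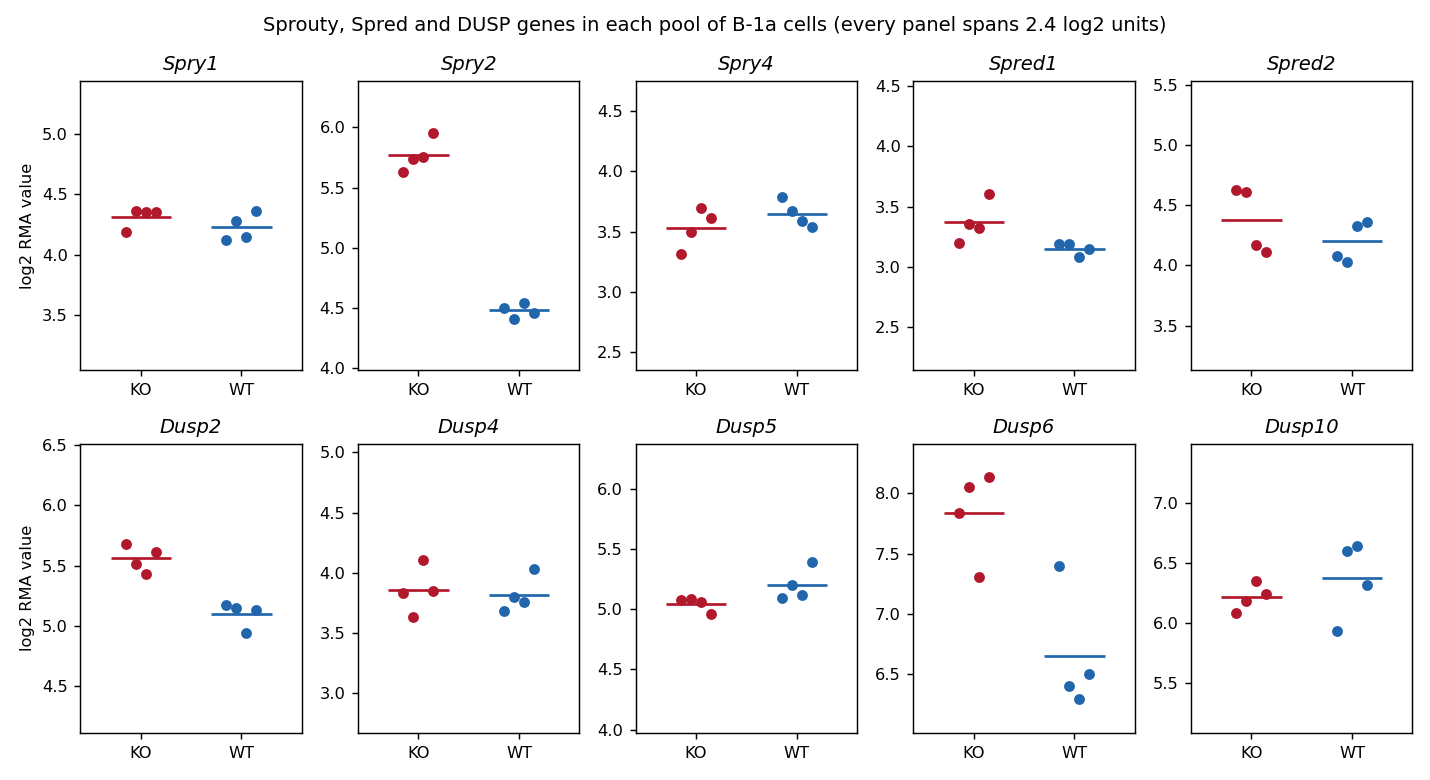
Log2 RMA value of each of the 10 genes in 4 KO pools (left in each panel, red) and 4 WT pools (right, blue), with points in pool order and a bar at the group mean. All panels span the same number of log2 units. Spry2 separates the genotypes by more than the spread of either group, Dusp2 and Dusp6 are higher in KO, and WT pool 1 of Dusp6 lies among the KO values.

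Among the Sproutys the increase was found in Spry2. Spry2 codes for an inhibitor of Ras and ERK activation below receptor tyrosine kinases, which also binds the ubiquitin ligase CBL. It measured 5.63, 5.74, 5.75 and 5.96 in KO pools 1 to 4, against 4.51, 4.41, 4.54 and 4.46 in WT pools 1 to 4 (log2 values). The groups lay far apart relative to their spread, with every KO pool above every WT pool, as was so for 5.41% of all genes. The mean was 5.77 ± 0.13 in KO and 4.48 ± 0.06 in WT (SD, n = 4 pools each). The difference of 1.29 (SE 0.09, 95% interval 1.10 to 1.48, limma adjusted p = 3.63e-05) is a 2.45-fold rise, number 20 in size among the 331 genes that rose and number 9 of all genes by p.

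Spry1 and Spry4 did not pass. Spry1, a close relative of Spry2 that is induced by antigen receptor signals in T cells, averaged 4.31 ± 0.09 in KO and 4.23 ± 0.12 in WT, a difference of 0.08 with a 95% interval of -0.11 to 0.28 (adjusted p = 0.733, limma). Spry4, another ERK-induced inhibitor, averaged 3.53 ± 0.17 in KO and 3.65 ± 0.11 in WT, a difference of -0.11 with an interval of -0.34 to 0.11 (adjusted p = 0.674, limma). The pools of both genes overlapped between genotypes. Neither interval reaches the size seen for Spry2. Spry4 lay below the median of all gene means (3.81), at the dim end of the arrays, where RMA compresses folds.

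The Spreds gave no call either. Spred1 encodes the family member mutated in Legius syndrome in humans and recruits neurofibromin. It measured 3.20, 3.35, 3.32 and 3.60 in KO pools, against 3.19, 3.19, 3.08 and 3.15 in WT pools. All KO values were above all WT values, though KO pool 1 barely so. The difference was 0.22 (95% interval 0.0046 to 0.43, adjusted p = 0.312, limma), and the gene was dim in both groups. Spred2 measured 4.63, 4.61, 4.17 and 4.11 in KO pools 1 to 4, against 4.08, 4.03, 4.33 and 4.36 in WT pools 1 to 4. Its KO pools split into a high pair, pools 1 and 2, and a low pair. The high pair also had the highest means of T cell and of NK cell markers. The difference was 0.18 (adjusted p = 0.607, limma), -0.06 without those 2 pools (adjusted p = 0.890) and 0.0035 with a covariate for the T cell markers (adjusted p = 0.996, limma). The part of other cells in these values was not tested.

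The DUSPs fall into nuclear phosphatases that early signals induce (Dusp2, Dusp4, Dusp5), a cytoplasmic one that is selective for ERK (Dusp6) and one that acts on JNK and p38 (Dusp10). Dusp6, also called MKP-3, measured 7.84, 8.05, 7.30 and 8.13 in KO pools 1 to 4, against 7.40, 6.40, 6.29 and 6.50 in WT pools 1 to 4. The groups touch at a single point: WT pool 1 stood above KO pool 3 and well over the rest of its group. The mean was 7.83 ± 0.37 in KO and 6.65 ± 0.51 in WT, a difference of 1.19 (SE 0.24, 95% interval 0.65 to 1.72, adjusted p = 0.0225, limma) or 2.28-fold.

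The dimmer Dusp6 probe set separated the groups fully. It measured 5.97, 5.86, 5.34 and 6.12 in KO pools 1 to 4, against 4.67, 4.86, 4.90 and 4.78 in WT pools 1 to 4. WT pool 1 was the lowest array here, while it was the highest WT array on the brighter probe set. The difference was 1.02 (SE 0.15, adjusted p = 0.0035 in limma with all 23521 probe sets tested), a 2.02-fold rise. Both probe sets put KO pool 3 lowest among the KO pools. WT pool 1 is the pool with the highest mast cell and macrophage marker means, and their part in its Dusp6 value was not tested. Without it the difference on the brighter probe set was 1.44 (adjusted p = 0.00315, limma).

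**Figure D2:**
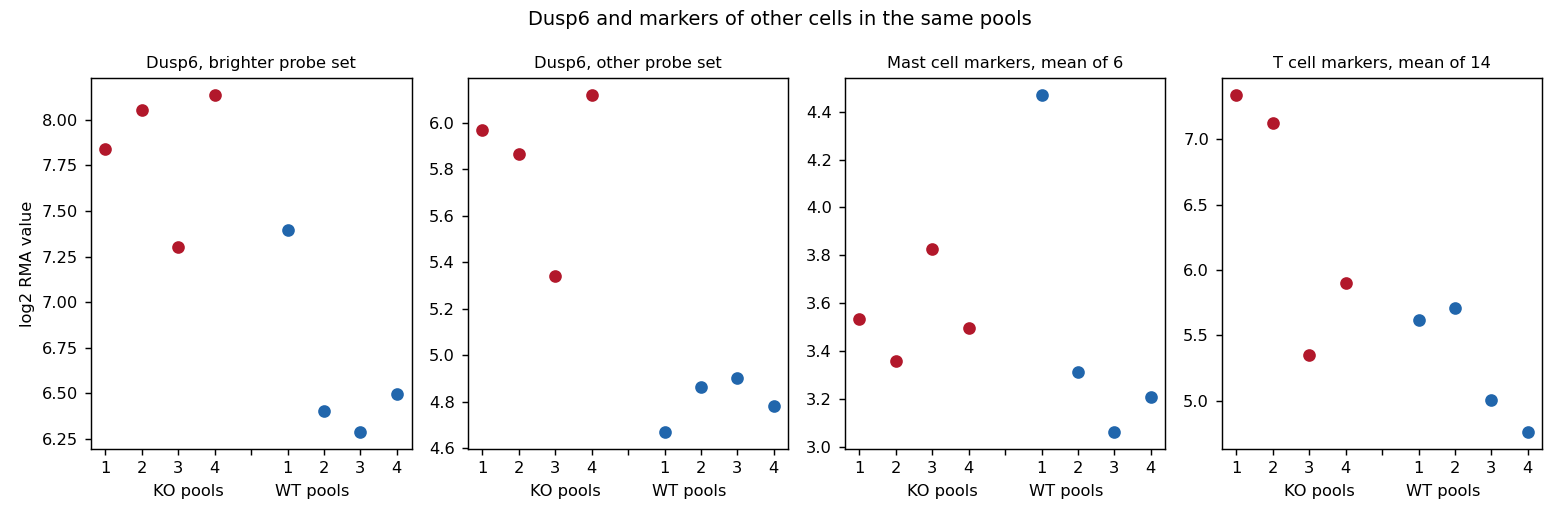
Log2 RMA values of both Dusp6 probe sets (panels 1 and 2), the mean of 6 mast cell markers (panel 3) and the mean of 14 T cell markers (panel 4) in KO pools 1 to 4 (red) and WT pools 1 to 4 (blue). Of both Dusp6 probe sets only the brighter one is high in WT pool 1, at 7.40, where the mast cell marker mean is 4.47. The T cell markers are highest in KO pools 1 and 2, at 7.34 and 7.13.

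Dusp2, or PAC-1, a nuclear phosphatase of activated lymphocytes, rose by less. It measured 5.68, 5.51, 5.43 and 5.61 in KO pools 1 to 4, against 5.17, 5.14, 4.94 and 5.13 in WT pools 1 to 4. Every KO pool was above every WT pool. The mean was 5.56 ± 0.11 in KO and 5.10 ± 0.11 in WT, a difference of 0.46 (SE 0.09, 95% interval 0.26 to 0.66, adjusted p = 0.0172, limma) or 1.38-fold, number 248 in size among the 331 rises.

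The remaining DUSPs gave no call. Dusp5, a nuclear phosphatase for ERK, measured 5.08, 5.08, 5.06 and 4.96 in KO pools, against 5.09, 5.20, 5.12 and 5.39 in WT pools. All KO values were below all WT values, as for 5.09% of all genes, but by a narrow margin, and the difference was -0.15 (95% interval -0.35 to 0.04, adjusted p = 0.463, limma). Dusp4 averaged 3.86 ± 0.20 in KO and 3.82 ± 0.15 in WT, a difference of 0.04 with an interval of -0.22 to 0.29. Dusp10 averaged 6.21 ± 0.11 in KO and 6.37 ± 0.33 in WT, a difference of -0.16 with an interval of -0.48 to 0.16, and its WT pools ran from 5.93 in pool 1 to 6.64 in pool 3. Adjusted p was 0.932 for Dusp4 and 0.687 for Dusp10 (limma).

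The calls differed in how much they rested on single pools. Spry2 was called in all 19 alternative fits, with differences of 1.23 to 1.38. Dusp2 missed the threshold when KO pool 1, KO pool 4 or WT pool 3 was left out, with differences of 0.42, 0.44 and 0.41 and adjusted p of 0.0522, 0.0502 and 0.0539 (limma). The brighter Dusp6 probe set lost its call without any 1 pool except KO pool 3 and WT pool 1 (adjusted p up to 0.0713), whereas the dimmer one kept its call without any 1 pool (adjusted p up to 0.0143, differences of 0.92 to 1.18). Without KO pools 1 and 2, which had the highest T cell markers, Spry2 differed by 1.37 (limma adjusted p = 0.000784), Dusp2 by 0.43 (adjusted p = 0.138) and Dusp6 by 1.07 (adjusted p = 0.179). With a covariate for the T cell markers (their mean in each pool) the differences were 1.38, 0.37 and 0.88, with adjusted p of 0.000543, 0.198 and 0.237 (limma). The dimmer Dusp6 probe set missed the threshold in both of these fits too, at 0.92 and 0.85 (adjusted p = 0.0610 and 0.0679), so that Spry2 alone of the 3 was called there. Fitting fewer arrays, or a covariate that differs between the groups, leaves less power. With the covariate the differences themselves also moved, down from 0.46 for Dusp2 and 1.19 for Dusp6 and up from 1.29 for Spry2. The cause of the lost calls was not tested.

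**Figure D3:**
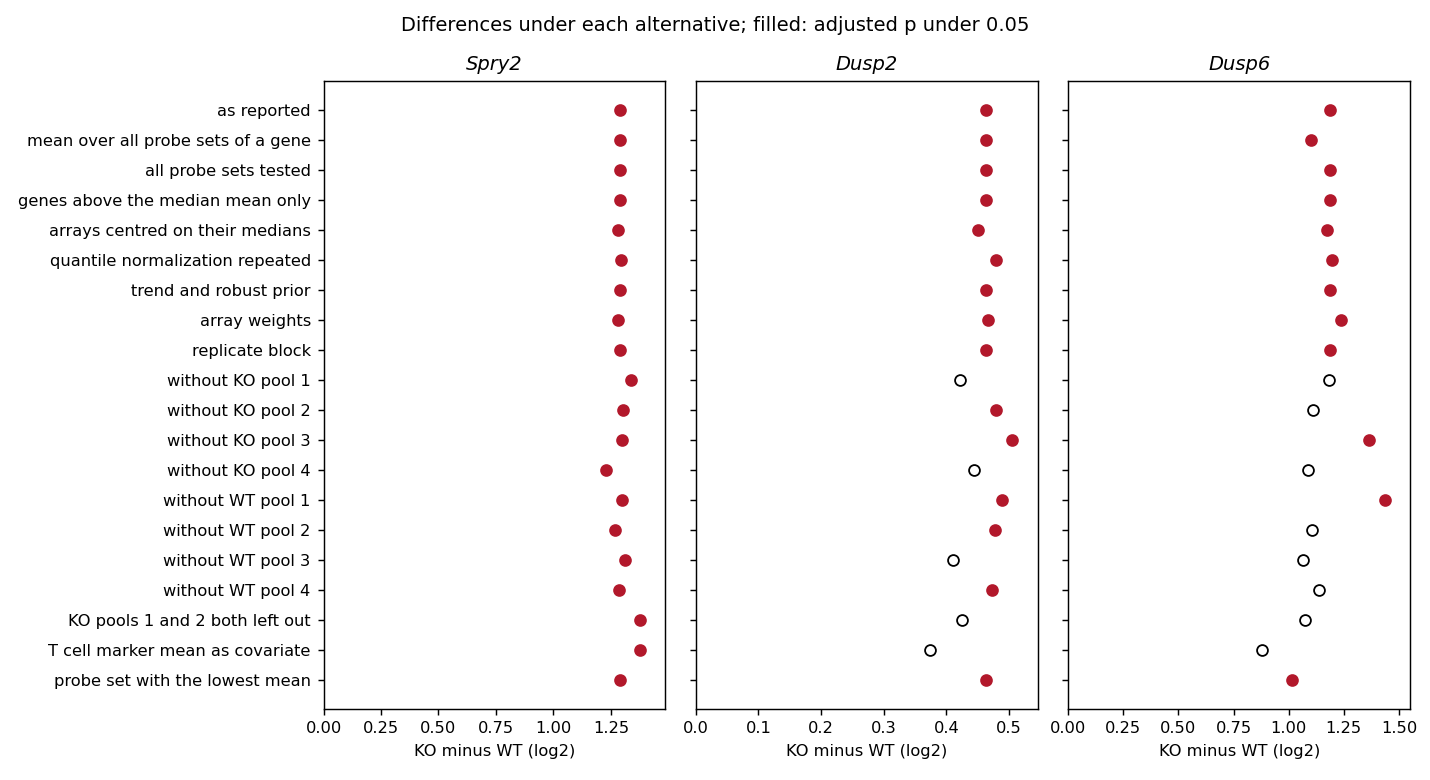
KO minus WT difference (log2, axis from 0) of Spry2, Dusp2 and Dusp6 as reported (top) and in 19 alternative fits, filled where the adjusted p was under 0.05. All differences are above 0. Spry2 is filled throughout, while Dusp2 has 5 and Dusp6 has 8 open points.

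The 250 bases before the annotated start of the genes that rose are shown because the 3 moved in the same direction. Also shown is the window of Dusp5, which did not rise and alone of the windows used held a word searched below. The sequences are those of RefSeq for GRCm38.p6, given 5′ to 3′ on the strand of the gene. Windows of 8 of the 10 genes were used here, without Dusp4 and Spry4. The Spry2 window lies at chr14:105896820-105897069 (minus strand), that of Dusp2 at chr2:127335909-127336158, that of Dusp6 at chr10:99262981-99263230 and that of Dusp5 at chr19:53528895-53529144 (all 3 on the plus strand). Capitals mark the CArG box, the binding word of serum response factor.
Spry2: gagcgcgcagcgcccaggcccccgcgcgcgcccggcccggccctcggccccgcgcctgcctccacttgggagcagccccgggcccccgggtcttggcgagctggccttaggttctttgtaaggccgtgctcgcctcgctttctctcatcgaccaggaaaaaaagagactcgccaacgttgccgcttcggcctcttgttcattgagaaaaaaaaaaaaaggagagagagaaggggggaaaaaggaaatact
Dusp2: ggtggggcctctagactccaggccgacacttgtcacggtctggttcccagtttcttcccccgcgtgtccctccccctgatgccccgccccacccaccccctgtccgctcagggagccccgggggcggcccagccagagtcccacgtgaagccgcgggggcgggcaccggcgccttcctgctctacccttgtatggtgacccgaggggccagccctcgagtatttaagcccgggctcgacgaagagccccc
Dusp6: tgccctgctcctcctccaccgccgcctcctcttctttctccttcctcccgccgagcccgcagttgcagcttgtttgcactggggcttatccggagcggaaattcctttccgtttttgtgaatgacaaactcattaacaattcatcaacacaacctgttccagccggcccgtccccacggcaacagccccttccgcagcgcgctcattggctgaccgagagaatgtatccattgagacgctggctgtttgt
Dusp5: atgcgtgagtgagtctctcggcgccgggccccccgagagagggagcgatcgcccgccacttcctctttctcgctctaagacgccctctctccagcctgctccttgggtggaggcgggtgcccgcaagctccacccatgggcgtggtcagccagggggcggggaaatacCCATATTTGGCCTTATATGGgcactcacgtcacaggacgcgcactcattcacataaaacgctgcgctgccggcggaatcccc

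Words of factors that ERK signalling acts on were searched on both strands. The CRE word TGACGTCA, the AP-1 word TGANTCA and the ETS word CCGGAAGT were in none of the 8 windows, against 1.55%, 6.75% and 2.88% of all 32851 windows. The CArG box, a search added after the sequences were read, matched in 1 of the 8, Dusp5, at 2 adjoining places that begin 82 and 72 bases before the start, and in 1.47% of all windows. The windows of Spry2, Dusp2 and Dusp6 held no match to any of the 4 words. Nor did those of Spry1, Spred1, Spred2 and Dusp10, which were not called. The C and G content was 62.4% for Spry2, 70.4% for Dusp2, 56.4% for Dusp6 and 64.0% for Dusp5, against a median of 52.4% over all windows. A match is a description of the letters, and the absence of one covers these windows only.

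Related genes outside the group gave no call. Of 10 further Sprouty, Spred and DUSP genes 0 passed the test (limma), against 3.59% of all genes. An unadjusted p under 0.05 was found for 2 (limma), against 15.3% of all genes. Of the differences 8 were positive, and the median was 0.11, against 0.02 over all genes. Dusp16, a JNK and p38 phosphatase, measured 5.60, 5.35, 5.62 and 5.45 in KO pools, against 4.96, 5.22, 5.12 and 5.28 in WT pools. Every KO pool was above every WT pool, and the difference of 0.36 missed the threshold (adjusted p = 0.0820), which it passed when the fit was limited to genes above the median mean (adjusted p = 0.0450, limma). Dusp7, a cytoplasmic ERK phosphatase like Dusp6, differed by 0.38 (adjusted p = 0.194) and Dusp1, the immediate early phosphatase MKP-1, by 0.20 (adjusted p = 0.545). Dusp9, another cytoplasmic ERK phosphatase, differed by 0.11 (adjusted p = 0.735), and Spry3 and Spred3 by 0.04 and 0.11. Dusp8, a JNK and p38 phosphatase, differed by 0.13 (adjusted p = 0.781) but by 0.55 with the T cell marker covariate, where it was called (adjusted p = 0.0387, limma). Dusp8 was dim, at 3.14 in KO and 3.01 in WT, below the median of all gene means (3.81).

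**Figure D4:**
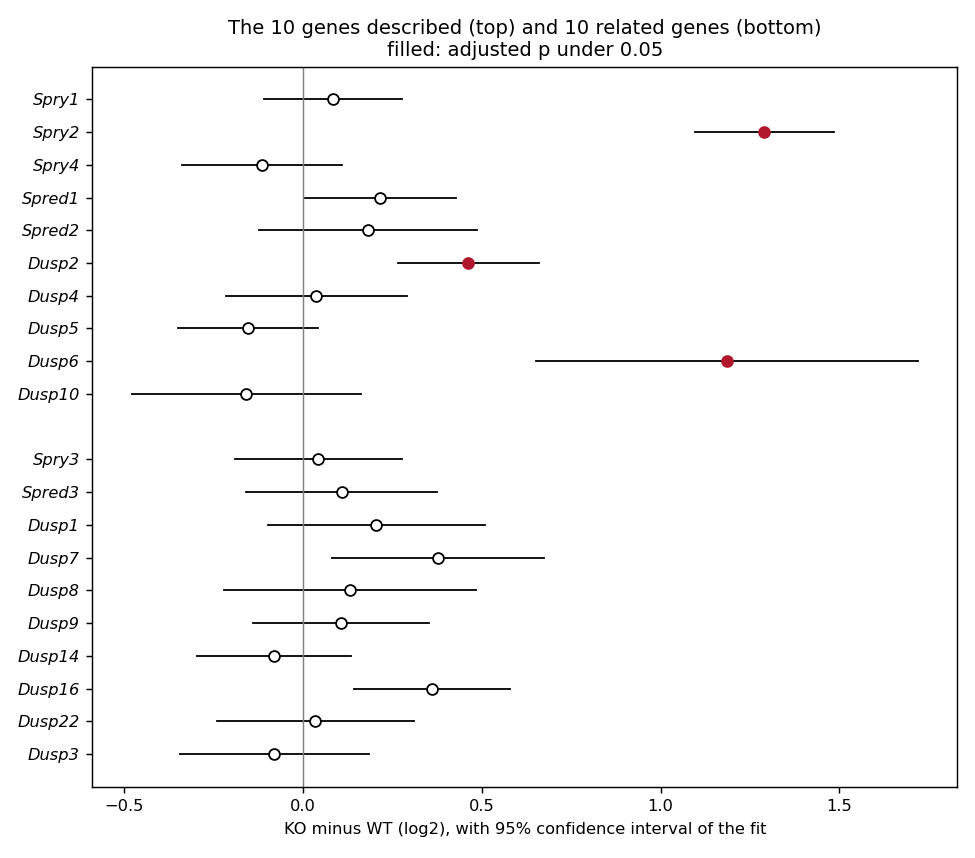
KO minus WT difference (log2) with its 95% confidence interval from the fit for the 10 members (top) and 10 related genes (bottom), filled where the adjusted p was under 0.05. The points of Spry2 and Dusp6 lie above 1, Dusp2 follows at 0.46, and the points of the other genes lie between -0.16 and 0.38.

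Within the Ras and ERK cascade, genes around Ras changed in both directions. Of 24 measured genes 2 rose and 2 fell, against 1.49% and 2.10% of all genes, and the median difference was 0.08. Gab2, a docking protein that links receptors to the phosphatase SHP2 and to PI3 kinase, measured 4.22, 4.45, 4.45 and 3.99 in KO pools, against 6.57, 5.98, 5.56 and 5.86 in WT pools. No KO pool reached the lowest WT pool, and the fall of 1.72 on the log2 scale is 3.29-fold (SE 0.19, adjusted p = 0.000591, limma). Rasgrp3, a diacylglycerol-responsive activator of Ras in B cells, averaged 7.62 ± 0.33 in KO and 6.40 ± 0.24 in WT, a 2.33-fold rise (adjusted p = 0.00246, limma). Rras2, a Ras family GTPase that associates with the B cell receptor, averaged 7.61 ± 0.15 in KO and 6.81 ± 0.20 in WT, a 1.74-fold rise (adjusted p = 0.00334, limma). The kinase gene Araf fell by 0.43 (adjusted p = 0.0381), a call lost without any 1 pool except KO pool 3 and WT pool 1 (adjusted p up to 0.109, limma). Ptpn11, the gene for SHP2, differed by 0.36 with all KO pools above all WT pools and missed the threshold (adjusted p = 0.0596), which it passed among genes above the median mean (adjusted p = 0.0312) and with a trended, robust prior (adjusted p = 0.0339, limma). The neurofibromin gene Nf1, partner of the Spreds, differed by 0.29 (adjusted p = 0.135), Rasa3, a Ras GTPase-activating protein gene, by -0.26 (adjusted p = 0.266) and Rps6ka3, which encodes an ERK-activated kinase, by 0.18 (adjusted p = 0.309, limma). The MEK genes Map2k1 and Map2k2 differed by 0.17 and 0.07. Another 7 genes of this list were not analysed here.

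Genes listed here as induced by ERK activity were divided in direction, and the listing was not tested in these cells. Of 23 measured 2 rose and 1 fell, against 1.49% and 2.10% of all genes. Of the differences 12 were positive and 11 negative, and the median was 0.04. The immediate early genes Egr1, Egr2, Egr3 and Fos differed by -0.14, -0.16, 0.20 and -0.13 (adjusted p from 0.571 to 0.841, limma), and Myc by -0.19 (adjusted p = 0.410). Fos, at 3.65 in KO and 3.77 in WT, lay below the median of all gene means (3.81), where RMA compresses folds. Egr1, at 3.92 in KO and 4.05 in WT, lay little above it. Elk3, an ETS factor that partners with serum response factor, averaged 7.27 ± 0.17 in KO and 6.75 ± 0.10 in WT (a rise of 0.52, adjusted p = 0.0170). Phlda1 averaged 5.01 ± 0.18 in KO and 4.48 ± 0.21 in WT (a rise of 0.53, adjusted p = 0.0390). Fosl2, an AP-1 subunit, averaged 5.06 ± 0.18 in KO and 5.65 ± 0.29 in WT (a difference of -0.59, adjusted p = 0.0485). Phlda1 was not called without KO pool 2, 3 or 4 or WT pool 1, 3 or 4, and Elk3 without KO pool 2 or 4 or WT pool 2. Fosl2 lost its call without any 1 pool except WT pool 1, and with array weights (adjusted p = 0.0502, limma). Of the genes that did not pass, Ier3 differed by 0.54 (adjusted p = 0.213), the ETS gene Etv5 by -0.47 (adjusted p = 0.229), the AP-1 gene Junb by -0.23 (adjusted p = 0.270) and Ier2 by 0.26 (adjusted p = 0.357, limma). Etv5 was called without KO pool 2, at -0.65 (adjusted p = 0.0398, limma).

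The JNK and p38 branches gave 1 call in 17 genes, against 3.59% of all genes called. Mapk8ip3, a scaffold for JNK that rides on kinesin, averaged 5.15 ± 0.25 in KO and 5.91 ± 0.26 in WT, a difference of -0.76 (adjusted p = 0.0178, limma), lost without WT pool 3 or 4 (adjusted p = 0.0552 and 0.0511). The kinase gene Map3k1 differed by -0.26 with all KO pools below all WT pools (adjusted p = 0.175), and Map3k4 by 0.23 with all KO pools above all WT pools (adjusted p = 0.190, limma). Map2k6, which activates p38, differed by -0.36 (adjusted p = 0.245, limma). The kinase genes Mapk8, Mapk9 and Mapk14, substrates of Dusp10 and Dusp16 at the protein level, differed by 0.24, -0.05 and 0.23 and were not called.

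Of 20 feedback inhibitors of receptor signalling outside these families 0 rose and 2 fell, with a median of -0.04. Over all genes 1.49% rose and 2.10% fell, and nothing is read from the list counts beside those shares. Ubash3b, a phosphatase that dampens antigen receptor signals, measured 5.73, 5.84, 5.69 and 5.99 in KO pools, against 6.98, 7.19, 7.14 and 7.35 in WT pools. All KO pools were far below all WT pools, and the difference of -1.35 is a 2.56-fold fall (SE 0.10, adjusted p = 6.43e-05, limma). Dok3, an adaptor that inhibits B cell receptor signalling, averaged 6.48 ± 0.22 in KO and 7.03 ± 0.14 in WT, a difference of -0.55 (adjusted p = 0.0309), lost without any 1 pool except KO pool 3 and WT pool 2. Inpp5d, the gene for the lipid phosphatase SHIP1, differed by 0.31 with all KO pools above all WT pools (adjusted p = 0.0646), and was called upward among genes above the median mean (adjusted p = 0.0303) and with the trended, robust prior (adjusted p = 0.0138, limma). Errfi1, Cish and Ptpn6 differed by 0.42, -0.33 and -0.25 (adjusted p = 0.137, 0.186 and 0.255, limma). With the mean over its probe sets, or with its dimmest one, Cish was called downward, at -0.46 and -0.58 (adjusted p = 0.0463 and 0.0373, limma). Without KO pools 1 and 2, and likewise with the T cell marker covariate, Gab2, Rasgrp3 and Ubash3b were the genes of these 4 lists that passed. Rras2 missed the threshold in both fits (adjusted p = 0.0583 and 0.0589), and Mapk8ip3 did so at -0.88 without those pools (adjusted p = 0.0563) and at -0.76 with the covariate (adjusted p = 0.130, limma).

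**Figure D5:**
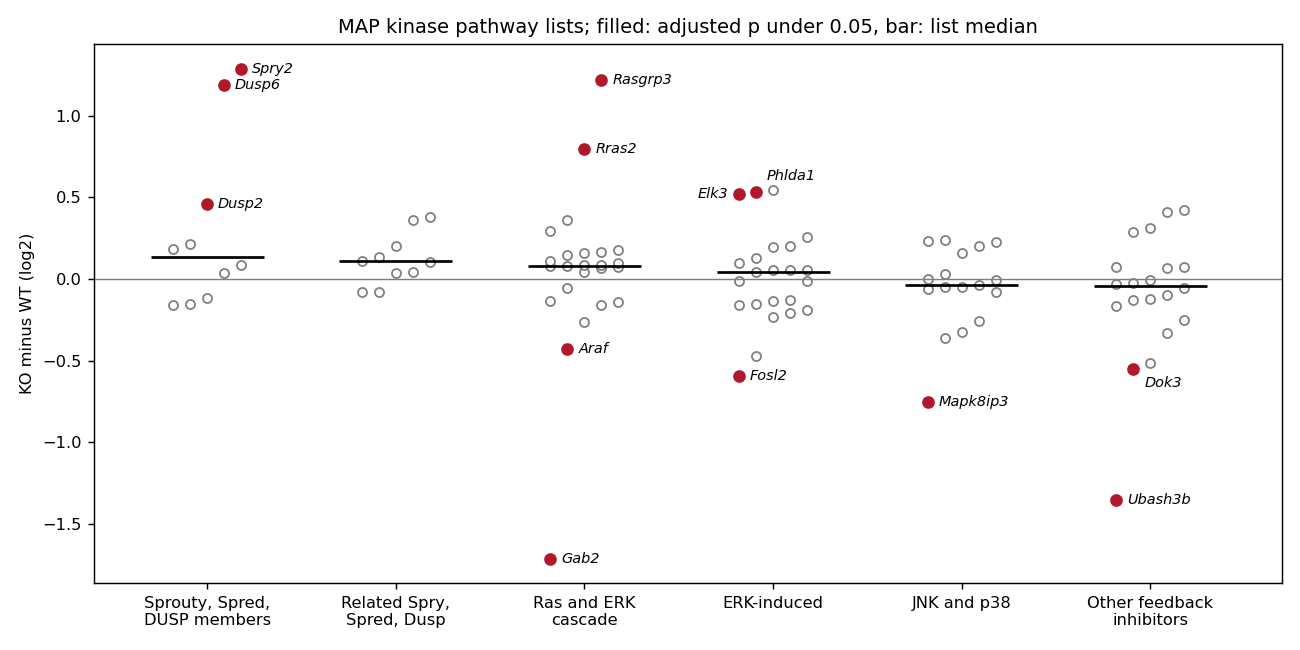
KO minus WT difference (log2) of each measured gene of the 10 members and 5 further lists, filled and named where the adjusted p was under 0.05, with a bar at the list median. Called genes lie on both sides of 0 in the cascade and the ERK-induced list, above 0 among the members and below 0 in the last 2 lists, and all medians lie between -0.04 and 0.13.

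Across the 8 arrays, the genes whose values followed Spry2 most closely were the zinc finger gene Zbtb10, the glutamine synthetase gene Glul and the G protein-coupled receptor gene Gpr171, with Pearson's r of 0.995, 0.995 and 0.990. Zbtb10 measured 6.76, 6.84, 6.74 and 6.89 in KO pools, against 5.97, 5.97, 5.96 and 5.93 in WT pools, a difference of 0.86 with little spread within either genotype. Those closest to Dusp2 were Plekha5, the carboxylesterase gene Ces2f and the kinase gene Tnik, with r of 0.985, 0.980 and 0.978. Of these Ces2f was dim, at 3.01 in KO and 2.76 in WT, and was not called (difference 0.25, adjusted p = 0.138, limma). These are descriptions over 8 arrays that share the contrast of genotypes, and any gene with a steady step between the groups scores high.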

How the data were processed

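Total RNA of 8 pools of sorted B-1a cells was measured on Affymetrix arrays. The deposited log2 values of 41345 probe sets were made by the authors with RMA (background correction, quantile normalization, probe summary) in R 3.2.2, per the submitters' processing notes; the sources used here name no package, summary level or genome build. Array medians lay between 3.68 and 3.74. Such scaling makes each difference relative to the other genes, and arrays give no read depth, so their number limits the precision.

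Of 25335 probe sets in the platform annotation 23521 carried a single symbol and were used, while 1814 with more than 1 were left unnamed, and symbols were updated by gene ID through a RefSeq table of GRCm38.p6. With 1 probe set per gene, 22180 genes were fitted on the log2 scale (R 4.3.3, package limma 3.58.1, functions lmFit and eBayes). Two-sided p-values were adjusted by Benjamini and Hochberg's method over every gene, and the threshold was 0.05. The fit was tested on simulated data. Called, rose and fell mean past that threshold. No set test was run. Nothing in the labels says how the pools were kept apart beyond being biological replicates, so p-values measure the spread between these pools.

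The members, pathway lists, markers and alternatives were chosen with earlier results of these data known. The named genes were the members, Paxip1, all called genes of each list with up to 4 others of smallest p, and the 3 genes nearest in pattern to the 2 members of smallest p. Others, such as Egr1, Fos, Myc, Map2k1, Mapk8 and Dusp8, were chosen after their values were seen. Alternatives changed the probe set, the dim-gene filter, the scaling, the prior and the array weights, added a replicate block and left out each pool. Added after the values were seen were the T cell marker covariate, omission of KO pools 1 and 2, and the dimmer probe set of each gene.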

Additional observations from a re-analysis of the deposited data

Results flagged for a closer look

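In 42 sets of 4 pools (21 genes in each genotype) the highest or lowest pool was set against the others by Dixon's ratio, which chance passes in about 1 set in 20, and 2 sets had an outlying pool. Spry1 was 4.19 in KO pool 1, below the other KO pools, which lay between 4.35 and 4.36. Araf was 8.02 in KO pool 3, above the other KO pools, which lay between 7.70 and 7.75.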

How the results depend on the processing

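Spry2, Paxip1, Gab2, Rasgrp3 and Ubash3b were called in all 19 alternatives, and the members that were not called stayed so in each alternative that gave them a value. Spry4 and Spred1 were too dim for the fit limited to genes above the median mean. Without KO pools 1 and 2, 320 genes were called (137 higher and 183 lower in KO), and 1 member was called upward. Dusp2 then differed by 0.43, Dusp6 by 1.07, Spry4 by 0.011 and Spred2 by -0.058, the last pair with turned signs. With the T cell marker covariate 287 genes were called (139 higher and 148 lower in KO) and 1 member upward, with Dusp2 at 0.37 and Dusp6 at 0.88. Leaving out 1 pool gave 479 to 758 called genes (196 to 296 higher, 274 to 462 lower in KO) and 1 to 3 members called upward. The total was 498 without KO pool 2 and 530, 497 and 479 without WT pools 2, 3 and 4, and 1 member was called without KO pool 1, KO pool 4 or WT pool 3. Dusp2 then ranged from 0.41 to 0.51, Dusp6 from 1.07 to 1.44 and Dusp4 from -0.047 to 0.11, below 0 without KO pool 3 (-0.047) and without WT pool 1 (-0.0069). Fewer arrays leave less power, and the cause of these changes was not tested. The replicate block gave 666 called genes and 3 members called upward. Pools with the same number share only that number in the labels. Their deviations correlated at 0.11, 0.04, 0.04 and 0.04, and not every pool was nearest to its own number. Such correlations cannot decide whether the pools were paired. Under the block Araf and Mapk8ip3 lost their calls (adjusted p = 0.0543 and 0.0581, limma).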
